A study of Mus musculus with 15 samples.

Results

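The genes of mouse chromosome 14 were compared between 2 lines of embryonic stem cells (ESCs), CreER and O4AID, in the order in which they lie along the chromosome. Each count file lists 1802 genes on this chromosome, of which 1395 had any read and 414 had 1500 or more reads summed over the 15 libraries. The selection leaves out 10 genes by name, of which 8 passed that minimum, so that 406 genes were described of 12538 genes in the genome with as many reads. Chromosome 14 was taken up because its level differed between the lines. The difference between O4AID and CreER is therefore given below as a description with no test. Tests were made only on the changes over time in CreER and on whether the change over time differed between the lines.

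CreER ESCs, of mixed 129SV and C57BL/6 background, carry 1 floxed and 1 null allele of *Pou5f1* (Oct4Fl/-) and a CAG-driven Cre recombinase that 4-OHT (500 nM) activates, and were sequenced at 0, 12, 18, 24 and 36 h with 2 libraries at each time. O4AID ESCs are 129SV cells that lack endogenous *Pou5f1* function (Oct4-/-), hold a doxycycline-silenced TetOFF Oct4 transgene, and depend on a CAG-driven Oct4AID fusion, which a CAG-driven Tir1 marks for degradation once the auxin IAA (500 µM) is added. They were sequenced at 0, 1.5, 6, 10 and 24 h with 1 library at each time. The O4AID transgenes were inserted by piggyBac, and whether O4AID is 1 clone is not given in the sources used here. All groups grew in the same serum-free base medium on gelatin with LIF and inhibitors of MEK and GSK3. The study kept O4AID in doxycycline as well. For its CreER course of Oct4 RNA and protein it describes a change to serum medium with 4-OHT, and does not state this for the RNA-seq. Strain, transgenes and depth differed between the lines, as did the doxycycline described for O4AID only. Their parts in a line difference cannot be told apart.

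The RNA level of a gene tends to follow the number of its copies, although feedback can offset this for single genes. When a stretch of chromosome is gained or lost in a cell line, neighbouring genes of unrelated function shift together, and the shift ends where the stretch ends. Mouse ESCs are known to gain or lose whole chromosomes or parts of them during long culture. RNA levels ordered by position can show such a block of genes, but they do not count DNA copies, and the copy number was not measured here.

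Library totals were 21655083 to 30774618 reads in CreER and 40537353 to 48719670 reads in O4AID, and chromosome 14 took 2.53 to 2.82% of the reads in CreER and 2.26 to 2.35% in O4AID. *Pou5f1* stood at 112 to 324 counts per 1e6 reads (CPM) in CreER, from a mean of 320.4 at 0 h to 118 at 36 h, and at 637 to 854 in O4AID, where the reads can come from the transgenes. The summed level of 9 ESC markers ranged from 2472 to 3250 CPM in CreER and from 2273 to 7071 in O4AID. The summed level of 6 fibroblast markers ranged from 8.22 to 9.98 CPM in CreER and from 2.57 to 5.02 in O4AID. That of 5 trophectoderm markers ranged from 26.1 to 108 in CreER and from 3.06 to 16.9 in O4AID. The lines also differed at processed pseudogenes, intron-less copies of genes that share reads with their parents. Over the genome 744 processed pseudogenes passed the minimum, with a median O4AID minus CreER difference of -5.73 on the log2 CPM scale, against 0.25 in 11303 protein-coding genes. Values of a gene or pseudogene with near-identical copies are uncertain for this reason. Counts below hold both kinds, and the search along the chromosome was also made with protein-coding genes alone.

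A search set to find 2 places where the line difference changes along the chromosome is described below. The sequence before the start site of protein-coding members next to each place is shown here to mark where the places lie. Of 5 members at these places, 4 had a RefSeq start site within 100 bases of the start in the count files. The sequences are the 250 bases before that start site in the RefSeq table of GRCm38.p6, written 5′ to 3′ on the strand of the gene, with every GC box (GGGCGG, or CCGCCC for the opposite strand) in capitals. *Fam213a* (chr14:41013805-41014054, minus strand, Prxl2a in RefSeq) is the last protein-coding member before a stretch of 2.11 Mb without a member. *Ero1l* (chr14:45318573-45318822, minus strand, Ero1a in RefSeq) is the first member of the lower block when protein-coding members alone are searched. *Tdrd3* (chr14:87416333-87416582, plus strand) is the last protein-coding gene of the lower block, and *Mzt1* (chr14:99046137-99046386, minus strand) is the first gene of the higher block.
Fam213a: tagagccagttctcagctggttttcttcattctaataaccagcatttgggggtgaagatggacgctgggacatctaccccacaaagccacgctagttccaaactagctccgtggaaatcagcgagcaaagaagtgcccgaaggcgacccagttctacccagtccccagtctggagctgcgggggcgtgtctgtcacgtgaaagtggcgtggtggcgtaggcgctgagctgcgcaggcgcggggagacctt
Ero1l: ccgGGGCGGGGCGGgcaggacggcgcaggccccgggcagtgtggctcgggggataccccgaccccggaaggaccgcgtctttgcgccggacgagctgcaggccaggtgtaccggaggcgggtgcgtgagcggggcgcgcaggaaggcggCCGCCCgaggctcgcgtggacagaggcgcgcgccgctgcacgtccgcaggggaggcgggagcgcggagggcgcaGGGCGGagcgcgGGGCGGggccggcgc
Tdrd3: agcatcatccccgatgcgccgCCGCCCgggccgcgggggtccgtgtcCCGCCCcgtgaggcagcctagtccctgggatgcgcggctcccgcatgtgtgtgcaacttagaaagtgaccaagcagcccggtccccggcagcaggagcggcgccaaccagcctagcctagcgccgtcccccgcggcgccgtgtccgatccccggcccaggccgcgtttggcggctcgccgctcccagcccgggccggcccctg
Mzt1: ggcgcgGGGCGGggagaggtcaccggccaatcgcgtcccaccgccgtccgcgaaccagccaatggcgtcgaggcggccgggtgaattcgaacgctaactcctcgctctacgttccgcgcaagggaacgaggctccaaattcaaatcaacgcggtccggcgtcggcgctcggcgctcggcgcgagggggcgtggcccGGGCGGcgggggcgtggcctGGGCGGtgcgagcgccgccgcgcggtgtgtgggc
The window of *Fam213a* held no GC box, that of *Ero1l* held 5, that of *Tdrd3* 2 and that of *Mzt1* 3. A GC box lay in 32.7% of the 32851 RefSeq start sites with a window of this length. The CCAAT box (CCAAT, or ATTGG for the opposite strand) occurred in 33.8% of these windows, and among the sequences shown only in that of *Mzt1*, at 2 places. The TATA box (TATAAA, or TTTATA) occurred in 12.4% of all windows and in none of the sequences shown. RefSeq windows were matched to 287 of the 406 genes and to 62.8% of those in the lower block, too few to compare motif shares between blocks.

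For each gene the line difference was taken as the mean log2 CPM of the 5 O4AID libraries minus the mean of the 10 CreER libraries. Its median was -0.28 over the 406 genes, with an interquartile range from -1.06 to 0.66, against 0.18 (-0.50 to 0.81) over the 12538 genes. The 10944 genes on autosomes other than 8 and 14 had a median of 0.23, and values called centred below are relative to it. With total-count scaling the median of all 12538 genes was 0.07 in place of 0.18, and centred values are relative to the other autosomes. The centred median of chromosome 14 was -0.51. A search for the single position that removes most of the summed absolute deviation from the medians on its sides placed it after *Fam213a* and before the pseudogene *Cdv3-ps*, which starts at 43121772. The 121 genes before it had a median of 0.24 and the 285 after it a median of -0.61, and this split removed 5.84% of the deviation.

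The last genes of the chromosome had a median above that of the other autosomes. With 2 splits 13.0% of the deviation was removed, and 3 blocks were formed. The number of splits was set beforehand, and no search with more than 2 was made. The 121 proximal genes had a centred median of 0.01, the 242 middle genes one of -0.96, a fold of 0.515, and the 43 distal genes one of 0.87, a fold of 1.83. On this scale 1 copy in place of 2 equals -1, 3 in place of 2 equals 0.58 and 4 in place of 2 equals 1. These values are given for scale only. Copy number was not measured, and a link of any block to it was not tested. The first border could be moved past *Cdv3-ps* and *1700049E17Rik2* with an equal sum, and the second lay before *Mzt1* without a tie. Where only 1 split was allowed, it moved to 99.0 Mb, before *Mzt1*, with a minimum of 5000 reads, with 0 h libraries only and with a correction for gene length and GC content. With 2 splits the second border was the same in 26 of 26 alternatives and the first in 23 of 26, within 43.1 to 46.8 Mb. These alternatives are not independent checks. Leaving out 1 library made up 15 of them, and centring or rescaling shifts all genes alike or nearly so, which can hardly move a border.

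**Figure D1:**
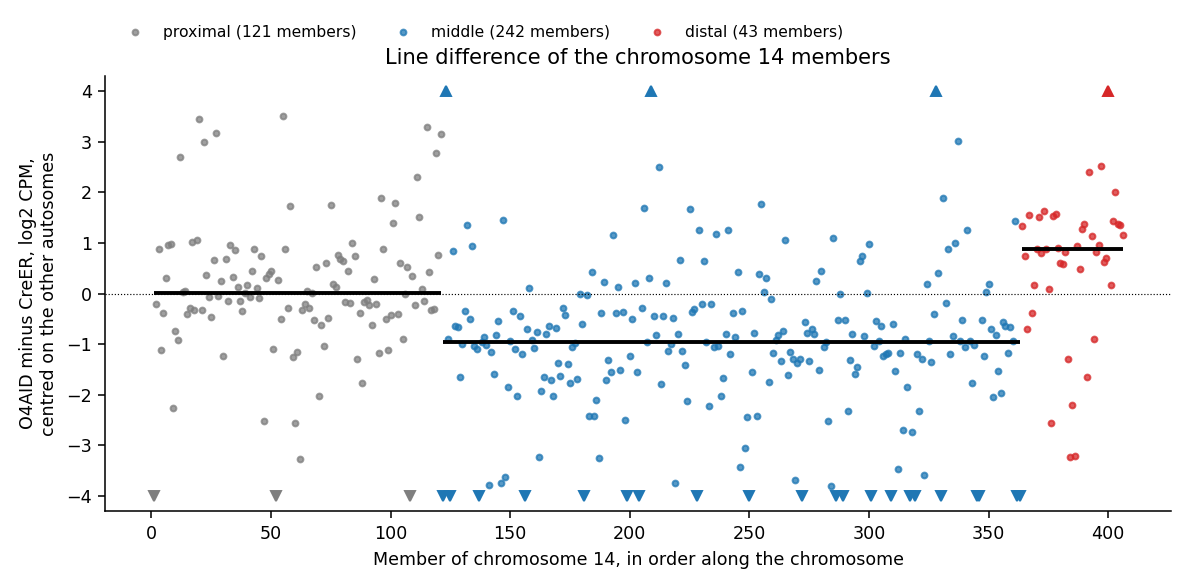
Centred line difference (O4AID minus CreER, log2 CPM, vertical axis) of the 406 chromosome 14 genes in their order along the chromosome (horizontal axis). Each point is a gene, black bars are block medians (0.01, -0.96 and 0.87), and triangles at the edges stand for 28 genes beyond 4 in size. The blue points lie mostly under the dotted line and the red points mostly above it.

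Few members lie around the first border, so that its place is known only to within some Mb. *Ghitm* (ENSMUSG00000041028, 37120444 to 37135322), a protein of the mitochondrial inner membrane, stood at 214, 211, 224, 219 and 185 CPM in O4AID at 0, 1.5, 6, 10 and 24 h, against 214 to 233 (median 221) in CreER. The 2 lines overlapped at this gene, with a difference of -0.08. The next 3 members, *Sh2d4b*, the tetraspanin *Tspan14* and *Fam213a* (ENSMUSG00000021792, 40993740 to 41013788), were all higher in O4AID, with differences of 3.00, 1.00 and 3.38. *Fam213a*, a peroxiredoxin-like protein, stood at 61.5, 61.6, 59.8, 58.4 and 66.8 CPM in O4AID and at 4.85 to 7.57 (median 5.84) in CreER. *Cdhr1*, a cadherin-related protein of photoreceptors, overlapped between the lines (-0.10).

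After the gap the first members differed in direction. *Cdv3-ps* was at 0.0659 CPM or less in O4AID and at 46.7 or more in CreER, while *1700049E17Rik2* stood at 5.49 to 11.3 CPM in O4AID and at 0.221 to 0.495 in CreER. *Gm7324* (43713902 to 43715068) was lower in O4AID, at 14.1 to 22.5 CPM against 23.5 to 32.7 in CreER. The pseudogene *Gm16439* was at 0.0256 CPM or less in O4AID and at 8.97 to 12.3 in CreER. *Txndc16*, a thioredoxin-domain protein, was higher in O4AID, with a difference of 1.06.

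From *Ero1l* onward (ENSMUSG00000021831, 45283092 to 45318572) the next members were lower in O4AID. *Ero1l*, which oxidises proteins in the endoplasmic reticulum, stood between 52.2 CPM, at 24 h, and 65.7 CPM, at 10 h, in O4AID and at 70.2 to 89.8 (median 78.0) in CreER. Every O4AID library lay below every CreER library. *Psmc6*, an ATPase of the proteasome, and *Fermt2*, an activator of integrins, followed with differences of -0.43 and -0.77 and again no overlap. When only the 374 genes annotated as protein-coding and with no pseudogene suffix in their symbol were searched, an alternative chosen after seeing the data, the first border lay between *Txndc16* and *Ero1l*, at 45.3 Mb, and 16.0% of the deviation was removed.

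*Diaph3* and *Tdrd3* before the second border and *Mzt1* and *Bora* after it stood on opposite sides of the centre, while other members near it went both ways. *Diaph3*, a formin that builds actin filaments, stood at 55.0, 50.5, 46.9, 40.3 and 31.9 CPM in O4AID and at 56.2 to 68.3 in CreER. *Tdrd3* (ENSMUSG00000022019, 87416639 to 87545373), a reader of methylated arginine, stood at 15.1, 13.8, 14.1, 15.5 and 16.9 CPM in O4AID and at 23.0 to 26.3 (median 24.7) in CreER. Both genes were lower in O4AID in every library. No other such gene passed the minimum in the 11.5 Mb up to *Mzt1*. The members in that gap were copies of other genes, *Rps3a2* at 1.66, *Gm10110* at -4.29 and *Rpl36a-ps1* at -6.22.

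*Mzt1* (ENSMUSG00000033186, 99034544 to 99046136), a small protein of the complexes that nucleate microtubules, stood at 106, 117, 118, 105 and 90.8 CPM in O4AID and at 32.5 to 40.9 (median 36.2) in CreER. *Bora*, which activates mitotic kinases, stood at 82.2, 98.8, 75.1, 83.7 and 66.8 CPM in O4AID and at 40.1 to 42.2 in CreER. At both genes every O4AID library was above every CreER library. *Dis3*, the nuclease of the RNA exosome, went the other way, at 170.3, 164, 156, 139 and 124 CPM in O4AID against 176 to 233 in CreER. *Pibf1* stood at 53.0 to 60.9 CPM in O4AID and at 14.2 to 20.5 in CreER. *Dis3* and *Pibf1* overlap at their ends on opposite strands, and since the strand setting of the counting was not stated, their shared reads are uncertain. *Klf12*, a zinc finger transcription factor, overlapped between the lines (-0.15).

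Over the genome all 5 O4AID libraries lay below all 10 CreER libraries for 27.3% of the 12538 genes and above them for 40.7%. In the proximal block 22 of 121 genes were lower without overlap and 53 were higher (18.2 and 43.8%). In the middle block 162 of 242 were lower and 35 higher (66.9 and 14.5%), and in the distal block 8 of 43 were lower and 33 higher (18.6 and 76.7%). The interquartile range was 1.08 wide in the proximal, 1.32 in the middle and 1.21 in the distal block, against 1.31 over the 12538 genes. Among features that did not enter the search, median GC content of the transcripts was 47.3, 49.2 and 46.4% from proximal to distal, against 49.6% over the 12538 genes, and median exonic length was 4027, 3752 and 3284 bases against 3909.

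**Figure D2:**
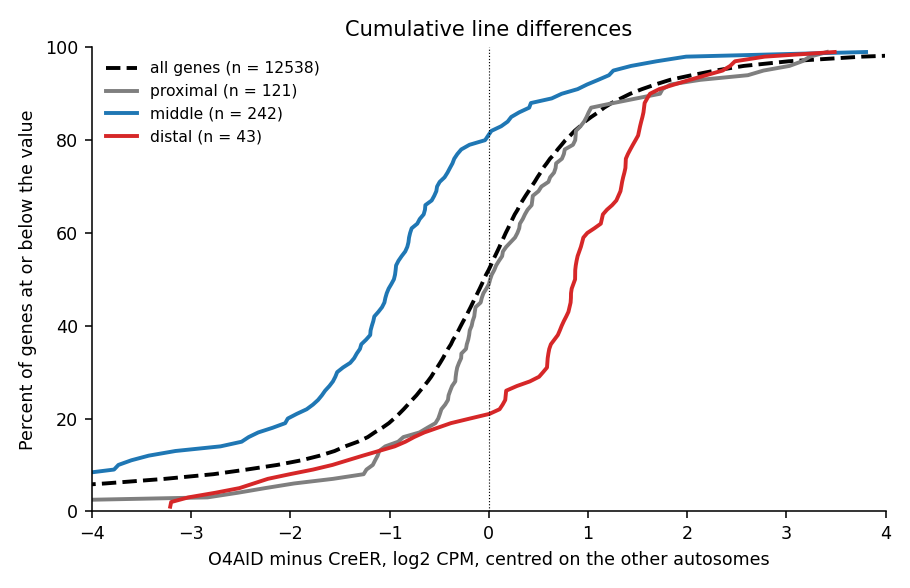
Cumulative share of genes (percent, vertical axis) at or below each centred line difference (O4AID minus CreER, log2 CPM, horizontal axis), for the 3 blocks and for all 12538 genes (dashed). The proximal curve runs close to that of all genes, while the middle curve lies to its left and the distal curve to its right over most of their length.

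Each O4AID library showed the 3 levels in the same order, and the distal level varied most between libraries. Relative to the CreER mean and centred in each library, the middle median was -0.96, -0.97, -0.94, -0.99 and -1.05 at 0, 1.5, 6, 10 and 24 h. The distal median was 0.82, 1.02, 0.88, 0.85 and 0.76 in the same order, and the proximal median stayed between -0.00 and 0.06. The distance from middle to distal was 1.85 ± 0.082 (SD, n = 5 libraries). That from proximal to distal was 0.83 ± 0.116, from 1.01 at 1.5 h to 0.69 at 24 h. Each CreER library, set against the other 9, had block medians between -0.03 and 0.03. The 5 O4AID libraries are different times of 1 line, and the SD measures the spread between them.

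**Figure D3:**
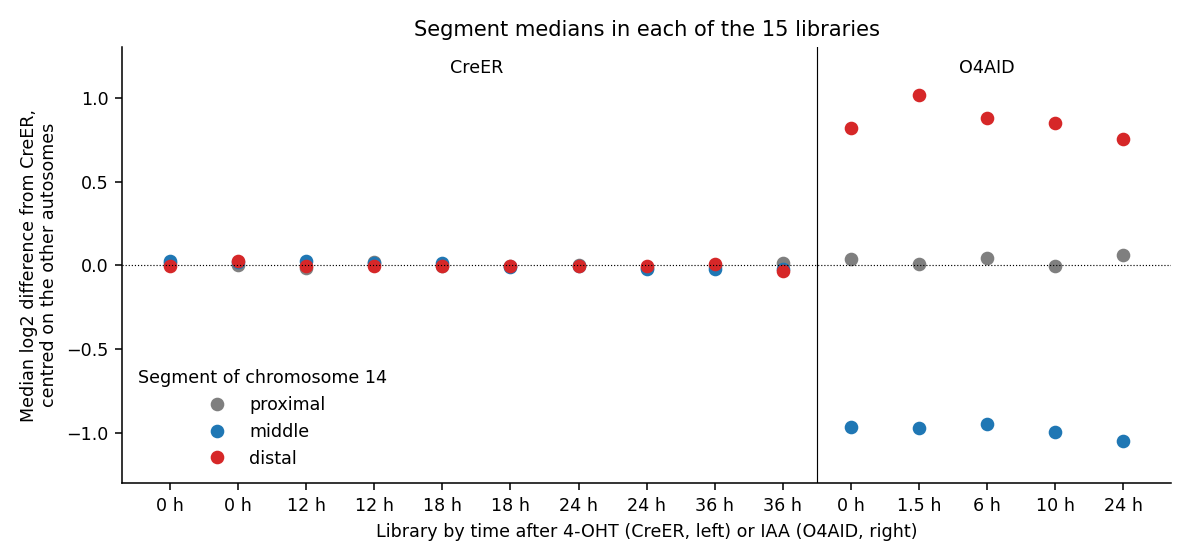
Block medians (log2 difference from CreER, centred on the other autosomes, vertical axis) in each of the 15 libraries by time (horizontal axis). CreER libraries, each set against the other 9, lie between -0.03 and 0.03 in all blocks. The O4AID libraries stand near 0 for the proximal (grey) and near -1 for the middle block (blue), and between 0.76 and 1.02 for the distal block (red).

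The second border was found before *Mzt1* in each of the 5 O4AID libraries taken alone. The first lay before *Cdv3-ps* in 4 of them, and at 46.8 Mb, between *Cdkn3* and *Cnih1*, in the 0 h library. With 0 h libraries of both lines alone the medians of the members were -0.74 in the middle and 1.07 in the distal block before centring, and with 24 h libraries -0.80 and 1.01. Both blocks were thus seen in libraries made before IAA was added.

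The same search was made on the other chromosomes. The medians of the 17 autosomes other than 8 and 14 lay between 0.10 and 0.34. On these and chromosome 8, the best single split removed between 0.25 and 4.55% of the deviation, and 2 splits removed 0.70 to 5.81%, against 13.0% on chromosome 14. On chromosome X 2 splits removed 2.84%. By this share the nearest was chromosome 17, where 45 of 592 genes formed a block with a centred median of -1.24. By the distance between blocks chromosome 14 did not stand apart, since the lowest and highest block medians were 1.83 apart there, 2.31 on chromosome 7, where 25 genes had a centred median of -2.36, and 1.96 on chromosome X, where 26 genes had one of 1.53. Small blocks also stood at -1.44 on chromosome 4 (55 genes) and -1.59 on chromosome 5 (20 genes), against 242 genes in the middle block of chromosome 14. Chromosome 8 was lower as a whole, with a centred median of -0.63, and 2 splits of it removed 0.79%. No test of these differences was made, since chromosome 14 was picked from the same contrast.

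**Figure D4:**
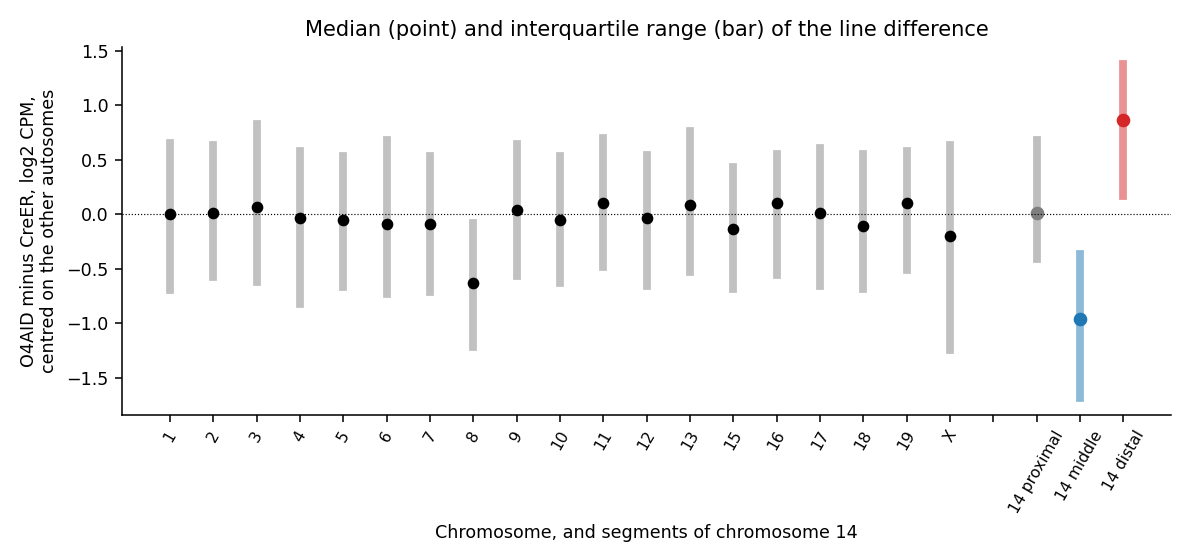
Median (points) and interquartile range (bars) of the centred line difference (O4AID minus CreER, log2 CPM, vertical axis) for genes of each other chromosome and for the 3 blocks of chromosome 14 (horizontal axis). Chromosome 8 stands at -0.63 and the middle and distal blocks at -0.96 and 0.87, while the other autosomes lie between -0.13 and 0.11.

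Genes of several functions were looked up in the blocks. Of 96 listed genes in 6 groups, 91 were among the 406, and the lists were made with earlier results of these data known. The listed name *Diap3*, for genome upkeep and cell division, matched no gene. *Diaph3*, described above, is therefore left out of the list counts. Of 21 genes for chromatin and transcription, 14 were lower in O4AID without overlap and 2 were higher (background 27.3 and 40.7%). The 14 lower ones were all those in the middle block, where 66.9% of all members were lower. The other 7 lie in the proximal block. For this and the other lists, the parts of function and of place on the chromosome cannot be told apart. *Supt16*, a subunit of the histone chaperone FACT, stood at 298, 268, 245, 233 and 200.1 CPM in O4AID and at 459.7 to 604 (median 553) in CreER. *Chd8*, a chromatin remodeller, stood at 83.8, 78.9, 75.6, 78.8 and 82.4 CPM against 188 to 228, and *Prmt5*, an arginine methyltransferase, at 74.1 to 103 against 360.5 to 454. All 3 lie in the middle block, with differences of -1.14, -1.40 and -2.20. In the proximal block *Bap1*, which removes ubiquitin from histone H2A, and *Pbrm1*, of the PBAF remodelling complex, overlapped between the lines (0.00 and -0.16), and *Top2b*, a DNA topoisomerase, was higher (1.28).

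Of 17 genes for genome upkeep and cell division, 11 were lower without overlap and 4 higher (27.3 and 40.7% over the 12538 genes). Of these 17 genes, 13 lie in the middle block, where 10 of them were lower (66.9% of all members there). In the middle block *Dlgap5*, of the mitotic spindle, was at -0.93, *Esco2*, which acetylates cohesin, at -0.83, *Apex1*, a repair endonuclease, at -0.85 and *Wdhd1*, a replication factor, at -0.73. *Mzt1* and *Bora*, the members of this list in the distal block, were higher. *Rec8*, the meiotic cohesin subunit, went against its block, at 26.5, 27.7, 34.9, 48.0 and 126 CPM in O4AID and 5.25 to 8.39 in CreER.

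Of 10 genes for proteasome and ubiquitin, 3 were lower, 4 higher and 3 overlapped, close to the shares of the 12538 genes (27.3 and 40.7%). In the middle block 3 of 6 were lower (66.9% of all members there). *Nedd8*, a ubiquitin-like modifier in the middle block, was lower (-0.90), whereas *Psmb5* (0.46) and *Psme1* (0.54), a catalytic subunit and an activator of the proteasome in the same block, were higher. *Uchl3*, a ubiquitin hydrolase in the distal block, stood at 91.5, 89.2, 84.5, 74.5 and 60.8 CPM in O4AID and at 21.3 to 27.0 in CreER. Every O4AID library was thus above the CreER libraries, the lowest being that at 24 h.

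Of 17 genes for mitochondria and metabolism, 5 were lower, 6 higher and 6 overlapped, shares of 29.4 and 35.3% that are likewise near the 27.3 and 40.7% over all genes. In the middle block 4 of 8 were lower (66.9% of all members there). The proximal *Tkt*, of the pentose phosphate pathway, was higher (1.00) and the proximal *Adk*, adenosine kinase, was lower (-2.30). *Pck2*, the mitochondrial enzyme that makes phosphoenolpyruvate, was higher (1.93) although it lies in the middle block. *Pcca*, a subunit of propionyl-CoA carboxylase in the distal block, stood at 31.7, 31.1, 26.0, 20.8 and 25.2 CPM in O4AID and at 7.58 to 10.2 in CreER, a difference of 1.61.

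Of 14 genes for translation and RNA handling, 9 were lower and 5 higher, with none overlapping (27.3 and 40.7% over the 12538 genes). In the middle block 6 of 7 were lower (66.9% of all members there). *Xpo7* (-2.50) and *Kpna3* (-1.52), which carry proteins through nuclear pores, lay in the middle block, and *Mbnl2* (2.63), a splicing regulator, in the distal one. *Mbnl2* stood at 201, 202, 269, 299.9 and 289 CPM in O4AID and at 31.9 to 63.7 (median 36.8) in CreER. *Ipo5*, an importin of the distal block, was lower in every O4AID library, at 505 to 650.2 CPM against 868 to 981. *Rpl15* (3.23), *Rps24* (3.74) and *Tpt1* (3.25) were higher, and all have processed copies in the genome with which reads can be shared.

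Of 12 measured genes for signalling and adhesion, 6 were lower, 4 higher and 2 overlapped (27.3 and 40.7% over the 12538 genes). In the middle block 5 of 6 were lower (66.9% of all members there). *Ajuba*, a LIM protein of cell junctions, stood at 35.6, 45.0, 30.6, 35.8 and 48.0 CPM in O4AID and at 289 to 327 in CreER. *Ptk2b*, a focal adhesion kinase, *Fgf17*, a fibroblast growth factor, and *Mmp14*, a membrane metalloprotease, were lower too, with differences of -4.42, -4.46 and -2.19, and lay in the middle block. *Bmpr1a*, a BMP receptor of the proximal block, was at 0.31 and *Slain1*, a microtubule plus-end protein of the distal block, at 1.76.

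The largest line differences belonged in part to genes with near-identical copies. The lowest were the pseudogenes *Gm6158*, *Cdv3-ps* and *Gm16439*, the non-coding *Mir124a-1hg* and *Enox1*, an oxidase of the cell surface. *Enox1* stood at 0.135, 0.164, 0.0510, 0.154 and 0.154 CPM in O4AID and at 23.4 to 86.4 (median 44.2) in CreER. The lines were far apart at this gene, and the CreER values also spread widely. *Mir124a-1hg* had no reads in the O4AID libraries after 0 h and stood at 7.92 to 12.0 CPM in CreER. The highest were *Gm21750*, *Psme2*, *1700049E17Rik2*, *Timm8a2* and *Rps24*. *Psme2*, a proteasome activator, stood at 40.6, 41.5, 39.2, 39.2 and 57.9 CPM in O4AID and at 0.824 to 1.80 in CreER. Just above the minimum lay *Neil2*, *Rab2b* and *Gm4654*, with 1523, 1612 and 1637 summed reads and differences of -1.38, -0.05 and -2.32. Just below it lay *Fam167a*, *9930012K11Rik* and *Sncg*, with 1419, 1434 and 1442 reads and differences of -1.0, -1.90 and 1.38.

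The change of chromosome 14 genes after 4-OHT was then followed within CreER, a contrast that did not choose the genes. With edgeR's quasi-likelihood test and Benjamini-Hochberg adjustment over 18969 genes, 405 of the 406 genes were tested. At 12 h 3 of them passed an adjusted p of 0.05 (0.395% of all genes tested), namely *Enox1*, which fell by 0.33 (adjusted p 0.00166), and *Zswim8* and *Hr*, which rose by 0.32 and 0.38 (adjusted p 0.0241 and 0.0438). The last 2 are named because the count is small, and both lost their call with total-count scaling (adjusted p 0.0584 and 0.0841) and with DESeq2 (0.0718 and 0.180), and *Hr* also with RLE scaling (0.0532). Of all genes tested 0.258% rose and 0.137% fell at that time. At 18 h 43 passed (8.52%), of which 23 rose and 20 fell (4.73 and 3.79%), where the shares in brackets, also below, are of all genes tested. At 24 h 107 passed (21.6%), 45 rising and 62 falling (11.0 and 10.6%), and at 36 h 189 (36.6%), 83 rising and 106 falling (19.4 and 17.2%). The balance of directions depended on the scaling. With total-count scaling 18 of 41 genes rose at 18 h, 51 of 91 at 24 h and 52 of 206 at 36 h, where the median change over all 18969 genes was -0.08 against 0.01. Genes with more reads pass more often. Among the 12461 tested genes at the same minimum 12.1, 28.6 and 47.1% passed at 18, 24 and 36 h. On chromosome 14 these shares were near or below that, at 10.6, 26.4 and 46.7%. Over the 4 times 204 genes passed at least once. At 12 h the count was 5 without CreER 0 h replicate 1, 7 without either 36 h library, and 1 without CreER 0 h replicate 2 or either library of 12 or 24 h. Without CreER 24 h replicate 2, 63 genes passed at 24 h, and at 18 h the count was 17 without CreER 0 h replicate 2, and 14 and 21 without CreER 18 h replicate 1 and 2.

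By block, at 36 h 59 of 121 proximal, 110 of 241 middle and 20 of 43 distal genes passed (48.8, 45.6 and 46.5%), and the median log2 changes were -0.00, -0.04 and -0.05. *Enox1* (ENSMUSG00000022012, 77156763 to 77721760) had CPM of 86.4 and 81.5 at 0 h and 23.4 and 23.7 at 36 h, a change of -1.82 (SE 0.0585, adjusted p 6.01e-19). *Slc39a14*, a zinc importer, fell from 150.3 and 149 to 78.5 and 80.1 CPM (-0.91, adjusted p 1.4e-15), and *Ephx2*, an epoxide hydrolase, from 15.9 and 16.4 to 9.05 and 8.19 (-0.89, adjusted p 2.01e-08). *Cdhr1* fell by 0.90 (adjusted p 2.83e-05). The pseudogene *Gm6254* had a change of -1.01 (adjusted p 0.0438), from 2.48 and 5.08 to 2.26 and 1.47 CPM, and without CreER 0 h replicate 2 a change of -0.37 (adjusted p 0.35).

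*Lcp1* (ENSMUSG00000021998, 75131101 to 75230842), an actin-bundling plastin, rose most, from 4.85 and 3.99 CPM at 0 h to 26.9 and 25.2 at 36 h (2.58, SE 0.137, adjusted p 1.04e-11). *Rgcc*, a regulator of the cell cycle, rose from 2.17 and 1.45 to 7.84 and 7.52 CPM (2.12, adjusted p 5.48e-10). *Rarb*, a retinoic acid receptor, rose by 1.82, *Grid1*, a glutamate receptor subunit, by 1.34 and *Slc7a8*, an amino acid transporter, by 1.21 (adjusted p 2.88e-05, 0.000844 and 1.01e-06). *Grid1* had CPM of 0.827 and 0.759 at 0 h and of 2.54 and 1.37 at 36 h, and without CreER 36 h replicate 1 its change was 0.80 (adjusted p 0.111). Of these 10 genes *Enox1*, *Slc39a14*, *Ephx2*, *Slc7a8*, *Lcp1* and *Rgcc* lie in the middle block, *Cdhr1*, *Rarb* and *Grid1* in the proximal and *Gm6254* in the distal one. The trophectoderm markers also stood higher in the CreER libraries at 36 h, *Hand1* at a mean of 59.0 CPM against 9.18 at 0 h, and their part in these changes was not tested.

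By function, the calls at 36 h in CreER are read against 22.8% falling and 24.3% rising among the 12461 genes at the same minimum, and 17.2 and 19.4% among all genes tested. Of these lists, 12 of the 21 genes for chromatin and transcription fell and 3 rose at 36 h in CreER, *Rb1*, which restrains the cell cycle, by 0.80 (adjusted p 2.77e-10) among the rising. Genes for translation and RNA handling fell in 8 of 14 cases and rose in 2, of which *Mbnl2* rose by 1.00 (adjusted p 4.33e-14) and *Xpo7* fell by 0.44 (adjusted p 1.81e-08). For genome upkeep and cell division 7 of 17 fell and 2 rose. For mitochondria and metabolism 3 of 17 fell and 2 rose (17.6 and 11.8%), near or below the shares over all genes. For proteasome and ubiquitin 2 of 10 fell and 1 rose, and for signalling and adhesion 2 of 12 fell and 3 rose. The genes for chromatin and transcription had a median change of -0.14 and those for translation of -0.17, against 0.00 over the 12461 genes. With total-count scaling 16 of 21 genes for chromatin and transcription and 9 of 14 for translation fell, 7 of 17 for mitochondria and metabolism and 6 of 12 for signalling fell, and 33.8% of the 12461 genes did.

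**Figure D5:**
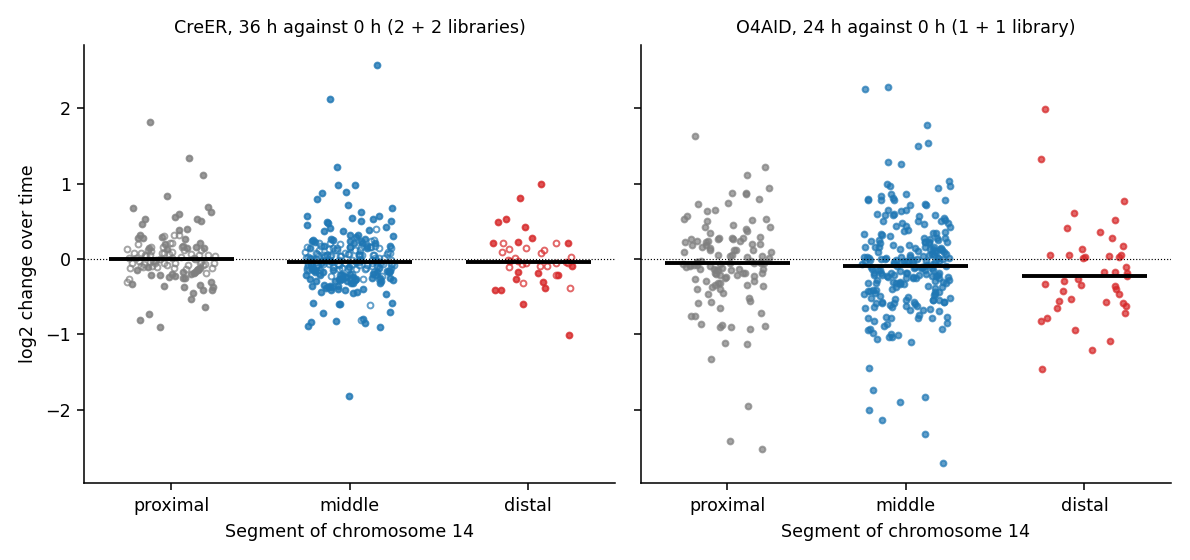
Log2 change over time (vertical axis) of each chromosome 14 gene by block (horizontal axis), in CreER at 36 h against 0 h (left, filled points passed the test) and in O4AID at 24 h against 0 h (right, 1 library at each time and no test). Black bars are medians, which lie between -0.05 and -0.00 in CreER and at -0.06, -0.09 and -0.23 in O4AID.

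In O4AID, with 1 library at each time and no test, the median log2 change of the 406 genes against 0 h was -0.02, -0.03, -0.08 and -0.08 at 1.5, 6, 10 and 24 h, and -0.04 over the 12538 genes at 24 h. With total-count scaling these medians were 0.02, 0.04, 0.00 and 0.02, so that their direction depends on the scaling. At 1.5 h no gene was higher and 5 were lower by 1 or more on the log2 scale, against 0.391 and 0.678% of the 12538 genes. At 6 h 2 were higher and 8 lower (1.26 and 1.27%), and at 10 h 6 and 6 (2.17 and 2.07%). At 24 h 13 were higher and 22 lower (5.21 and 4.81%). By block the medians at 24 h were -0.06, -0.09 and -0.23. At 0 h the middle minus proximal difference was -1.0 and the distal minus middle difference 1.78.

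Among the genes that were lower at 24 h, *4930444M15Rik* stood at 3.49, 2.81, 3.08, 1.92 and 0.505 CPM in the order of times. *Fam25c* stood at 42.4, 37.3, 29.6, 23.7 and 7.32 CPM and *Sh2d4b* at 18.3, 15.8, 10.7, 9.81 and 3.38. The lowest library was that at 24 h for each of them, and the counting intervals of the 24 h log2 change were -3.41 to -2.16, -2.70 to -2.37 and -2.68 to -2.18. *Dok2*, an adaptor of tyrosine kinases, and *Ephx2* followed with changes of -2.33 and -2.13. Among the genes that were higher, *Slc39a14* stood at 1.98, 2.70, 3.59, 3.84 and 9.76 CPM and *Rec8* at up to 126, changes of 2.28 and 2.25. *Uggt2* (1.99), a folding sensor of the endoplasmic reticulum, *Slc7a7* (1.78), an amino acid transporter, and *Dnah1* (1.63), a dynein heavy chain of cilia, came next. The intervals are 95% Wilson intervals and cover counting error only.

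Whether the 24 h change differed between the lines was tested in 1 edgeR fit over all libraries, in which the single O4AID libraries were assumed to vary like the CreER replicates. Of the 406 genes 181 passed an adjusted p of 0.05 (30.2% of 21318 genes tested, and 42.6% of the 12538 genes), 70 with a higher and 111 with a lower change in O4AID (14 and 16.3% of all genes tested). With total-count scaling 174 passed, 88 higher and 86 lower, so that the excess of lower changes was not seen with that scaling. By block the term passed in 54 of 121 proximal, 104 of 242 middle and 23 of 43 distal genes. *Slc39a14* had the highest term at 2.76 (SE 0.136, adjusted p 9.14e-16), falling by 0.46 in CreER at 24 h (adjusted p 2.94e-09). In O4AID it was higher at 24 h than at 0 h, but stayed far below the CreER values given above. *Mmrn2*, an extracellular matrix protein of vessels, had the lowest at -2.61 (SE 0.124, adjusted p 3.98e-16). It rose from 8.75 and 8.81 to 13.5 and 14.2 CPM in CreER at 24 h and was lower at 24 h than at 0 h in O4AID, where it stood at 54.2 CPM at 0 h, with a log2 change of -1.95.

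The other genes with the largest terms were *4930444M15Rik* (-2.39, adjusted p 1.63e-06) and *Fam25c* (-2.33, adjusted p 3.69e-11) on the lower side, and *Rec8* (1.97, adjusted p 6.99e-12) and *Uggt2* (1.94, adjusted p 5.29e-09) on the higher. *Uggt2* lies in the distal block but stood at 2.14, 2.86, 3.59, 5.45 and 8.61 CPM in O4AID, below the 9.64 to 11.9 of CreER at each time. Of the 17 genes for mitochondria and metabolism 9 had a lower 24 h change in O4AID and none a higher one (23.6 and 19.0% of the 12538 genes, 16.3 and 14% of all genes tested), among them *Glud1*, glutamate dehydrogenase, at -0.85 (adjusted p 6.69e-11) and *Pck2* at -1.03 (adjusted p 3.1e-08). Of the 14 genes for translation and RNA handling 8 had a lower change and none a higher one, against the same shares. With total-count scaling, where 18.1% of the 12538 genes had a lower and 23.6% a higher change, the counts were 7 lower and none higher for mitochondria and metabolism, and 5 lower and 1 higher for translation. *Kat6b*, a histone acetyltransferase of the proximal block, had a term of -0.90 (adjusted p 2.59e-11), *Fzd3*, a Wnt receptor of the middle block, one of 1.23 (adjusted p 1.27e-06), and *Mzt1* one of -0.08 (adjusted p 0.549).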

How the data were processed

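RNA-seq of ribosomal-RNA-depleted, directional paired-end libraries was analysed in 15 mouse ESC samples, 10 of CreER and 5 of O4AID. Per the labels and the study's methods, the authors trimmed reads with Trim Galore 0.1.4, aligned them with TopHat2 2.1.0 to GRCm38 and counted them with featureCounts 1.5.1, and the deposited values are raw read counts per gene. Settings for strand and for reads with several matches are not given in the sources used here, and can move genes with copies or overlaps.

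The genes and lists were chosen with earlier results of these data known. Log2 CPM used TMM factors and a prior count of 1. Borders along the chromosome were those with the smallest summed absolute deviation from block medians, with at least 20 genes a block, and the line difference was not tested. Tests used edgeR 4.0.16 (quasi-likelihood, filterByExpr, Benjamini-Hochberg over all genes tested, adjusted p under 0.05), with DESeq2 1.42.0 as an alternative. Replicates of CreER differed by more than sampling noise (chi-square per degree of freedom 3.27 to 7.76), but the labels do not say that they were separate cultures, so that p-values measure the spread between these samples. Named genes were the 5 on each side of the first border, the 5 highest and 5 lowest in the line difference, the 5 largest rises and falls in CreER at 36 h and O4AID at 24 h, the 3 and 3 largest line by time terms, the function lists, and those next to the count minimum. Genes around the second border were added after their values were seen. The edgeR step was tested on simulated data for CreER at 36 h over 18969 genes. It recovered 100% of 100 changes of 1 and 40% of 100 changes of 0.5 on the log2 scale, with 8 false calls. The directions of calls were also counted with RLE and total-count scaling and with DESeq2, an addition made after seeing the data. Promoter windows came from RefSeq GRCm38.p6.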

Additional observations from a re-analysis of the deposited data

Results flagged for a closer look

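The 6 most extreme values of the line by time term at 24 h stood out because the change in O4AID differed from that in CreER by edgeR's test of the difference itself. The O4AID minus CreER difference in log2 change was -2.61 for *Mmrn2*, -2.39 for *4930444M15Rik* and -2.33 for *Fam25c*, and 1.94 for *Uggt2*, 1.97 for *Rec8* and 2.76 for *Slc39a14*. Each rests on 1 O4AID library at each time, assumed to vary like the CreER replicates, and these are the most extreme of 181 genes that passed.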

How the results depend on the processing

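The median line difference of -0.28 was -0.39 with total-count scaling, -0.51 when centred, -0.34 with 24 h libraries only and -0.19 with protein-coding genes only, an alternative chosen after seeing the data. Before the single split, the median of 0.24 was 0.20 with RLE scaling, 0.13 with total-count scaling, 0.0139 when centred, 0.15 and 0.28 with minimums of 500 and 5000 reads, 0.33 at 24 h and 0.28 with protein-coding genes only. After it, -0.61 was -0.72 with total-count scaling and -0.84 when centred. The single split lay at 99.0 Mb with a minimum of 5000 reads, with 0 h libraries only, after correction for gene length and GC content, as the second of 2 splits and in the O4AID 1.5 h library alone. Leaving out each library gave -0.31 to -0.24 for the median, 0.24 to 0.26 before the split, -0.65 to -0.61 after it, and a split at 43.1 Mb throughout.

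At 12 h 3 genes passed in CreER, against 7 with no filter, 1 with only the libraries compared and 1 with DESeq2, and at 18 h 43 against 23 with DESeq2. Leaving out each CreER library gave 1 to 7 genes at 12 h, 14 to 56 at 18 h, 63 to 123 at 24 h, 153 to 180 at 36 h and 158 to 185 for the line by time term. With total-count scaling the O4AID medians were 0.0201, 0.0364, 0.00476 and 0.0244 at 1.5, 6, 10 and 24 h, and with RLE scaling -0.11 at 24 h. With total-count scaling the line by time term was higher in 88 and lower in 86 genes, against 70 and 111. The causes were not tested.

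Replicate numbers did not pair the CreER samples (correlations of deviations over 10 pairs of times -0.12 to 0.13, with 1 above 0.1). With the replicate block 3, 45, 108 and 187 genes passed at 12, 18, 24 and 36 h and 184 for the line by time term. *Gm6254* lost its call at 36 h in 8 alternatives and *Grid1* in 1. O4AID has 1 library at each time, so that its changes have no replicate check, and genes under 1500 reads were not described.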
